A study of Mus musculus with 2 samples.

Results

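Epithelial cells among dissected inter-limb somites, taken to be of surface ectoderm and other epithelia, were described at embryonic day (E) 9.5 and E11.5. They were chosen by the counts of 8 genes. A cell was a member if it had at least 4 unique molecular identifiers (UMIs, tags that let each captured transcript be counted once) summed over Epcam, Cdh1, Trp63 and Krt15. These had to come from at least 2 of the 4 genes, with no UMI of Cdh5, Meox1, Sox10 or Elavl3, which mark endothelium, somite, neural crest and neurons. Of 19446 cells kept, 158 met the rule. At E9.5 there were 52 members among 9851 cells (0.528%, exact binomial 95% interval 0.394 to 0.692), and 106 were found among the 9595 cells of E11.5 (1.10%, 0.905 to 1.33).

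The embryos were wild-type C57BL/6 mice without any treatment. Somites lying between the limb buds were pooled from 3 embryos per stage and captured as 1 single-cell library on the 10x Genomics platform, and no label ties a cell to an embryo. Stage and library therefore cannot be told apart, cells are not replicates, and no difference was tested. Levels are UMIs of a gene per 1000000 UMIs of the members of a library, with exact Poisson 95% intervals, and ratios carry the exact interval of a ratio of Poisson counts. All intervals cover counting error only. Where 2 values of a gene are given without a stage, the first is of E9.5 and the second of E11.5. The E9.5 library held 149368952 UMIs in 10121 barcodes and the E11.5 library 136655763 UMIs in 10167. The libraries shared 30 barcode sequences, none of them a member's.

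Surface ectoderm is the epithelium that covers the embryo and later forms the epidermis. During mid-gestation it turns from a simple epithelium, with filaments of Krt8 and Krt18, into a basal layer with Trp63, Krt5 and Krt14 beneath a transient outer layer called the periderm. Local thickenings, the placodes, give rise to mammary buds and later to hair. The ectoderm is also a known source of Wnt ligands for the dermomyotome, the somite layer beneath it.

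Promoters are shown for 5 genes of the results. Krt5 and Krt14 are the basal keratin pair, Cxcl14 and Gjb2 were among the genes highest at E11.5, and Krt7 was among the 15 genes that stood most above the other cells in both libraries. Each sequence runs from 250 bases before to 50 bases after the gene start, from RefSeq on GRCm38.p6, 5′ to 3′ on the strand of the gene. They lie at chr15:101712856-101713155 (minus strand), chr11:100205981-100206280 (minus strand), chr13:56296502-56296801 (minus strand), chr14:57104653-57104952 (minus strand) and chr15:101412153-101412452 (plus strand). Capitals mark GCCNNNGGC, the letters that AP-2 factors such as Tfap2b are known to bind, which were found in Gjb2 and Krt7 and not in Krt5, Krt14 or Cxcl14. The gene spans of Krt14 and Krt7 in GENCODE, 100203162 to 100207548 and 101411043 to 101430313, begin upstream of the RefSeq starts used here, so for both the stretch shown lies within the GENCODE span.
Krt5: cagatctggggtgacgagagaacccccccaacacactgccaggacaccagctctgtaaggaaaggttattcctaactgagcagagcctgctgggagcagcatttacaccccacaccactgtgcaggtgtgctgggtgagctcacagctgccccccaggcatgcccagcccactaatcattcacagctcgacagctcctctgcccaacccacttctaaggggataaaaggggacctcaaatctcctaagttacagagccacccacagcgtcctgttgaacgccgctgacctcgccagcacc
Krt14: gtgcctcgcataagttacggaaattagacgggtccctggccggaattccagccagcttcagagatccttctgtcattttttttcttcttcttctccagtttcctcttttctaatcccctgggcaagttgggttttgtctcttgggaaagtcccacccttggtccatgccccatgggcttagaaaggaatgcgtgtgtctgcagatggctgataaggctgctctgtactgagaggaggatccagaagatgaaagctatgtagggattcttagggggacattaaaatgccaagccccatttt
Cxcl14: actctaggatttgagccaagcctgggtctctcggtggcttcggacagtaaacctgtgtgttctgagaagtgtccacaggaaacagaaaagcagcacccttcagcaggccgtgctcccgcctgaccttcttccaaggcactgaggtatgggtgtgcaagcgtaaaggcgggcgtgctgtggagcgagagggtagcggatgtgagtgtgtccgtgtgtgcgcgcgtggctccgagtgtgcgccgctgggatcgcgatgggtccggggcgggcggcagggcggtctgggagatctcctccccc
Gjb2: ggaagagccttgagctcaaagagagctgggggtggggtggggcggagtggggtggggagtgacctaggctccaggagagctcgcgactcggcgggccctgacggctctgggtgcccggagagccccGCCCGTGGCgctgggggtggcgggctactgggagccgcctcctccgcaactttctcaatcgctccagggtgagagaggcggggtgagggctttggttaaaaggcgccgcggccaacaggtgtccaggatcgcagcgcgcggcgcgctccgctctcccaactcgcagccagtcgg
Krt7: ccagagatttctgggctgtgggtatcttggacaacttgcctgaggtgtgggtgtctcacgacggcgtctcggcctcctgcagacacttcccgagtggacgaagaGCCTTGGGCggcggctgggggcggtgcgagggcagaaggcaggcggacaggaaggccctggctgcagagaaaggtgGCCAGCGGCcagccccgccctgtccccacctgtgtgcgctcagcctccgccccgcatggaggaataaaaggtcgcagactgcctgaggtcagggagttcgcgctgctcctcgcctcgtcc
The motif reads the same on both strands. Of the 15 genes above the other cells, 8 had a promoter in the RefSeq table, and the letters were in 3 of their 10 promoters. Of 25 genes highest at E11.5 after members that held any of 7 lists of other tissues were left out, 19 were in the table, and 5 of 20 promoters held them. Among all 32851 promoters of this length the share was 16.6%. AACCGGTT, the letters bound by Grhl factors, also palindromic, was in none of these promoters and in 0.146% of all. A match is a description of letters, not of binding.

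The median depth of E9.5 members was 14906 UMIs, from 9265 to 30054, where all cells kept had 12462. At E11.5 the median was 12248, from 3014 to 41806, and that of all cells kept 12479. Epcam, an epithelial adhesion molecule, stood at 599 (549 to 654) and later at 555 (518 to 593). Cdh1, the epithelial cadherin, stood at 83.3 (65.04 to 105) and 76.9 (63.7 to 92.00). Both differed little between the stages. Trp63, a transcription factor of stratified epithelia, stood at 62.2 (46.6 to 81.3) in the younger and 273 (248 to 301) in the older members, and Krt15, a basal keratin, at 11.7 (5.62 to 21.6) and 605 (567 to 645). A UMI of Trp63 or Krt15 was held by 31 of 52 and 101 of 106 members. These genes chose the cells, so their values describe the choice and support nothing else. Members held a median of 12 and 20 summed UMIs of the 4 genes. At the threshold of 4 UMIs lay 4 and 5 members, while 6 and 2 cells with at least 2 of the genes stopped at 3 UMIs.

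The genes that had to be absent set the number of members at E9.5. There 126 cells met the UMI threshold, and 74 of them held an excluded gene, which was Meox1, a somite factor, in 68. These 74 cells had a median of 22202 UMIs, and Scrublet, a caller of droplets with 2 cells, marked 14 of them. Their Krt8 level was 222, between 419 in members and 12.6 in all other cells kept. At E11.5 122 cells met the threshold and 16 held an excluded gene. Without the exclusion the shares of cells were 1.28% and 1.27%, so the higher share of members at E11.5 was not seen without it.

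Against all other cells of the same library, members stood higher in most of the epithelial identity and tight junction genes compared. The 15 leading genes were 4631405K08Rik, Sfn, Cldn6, Cldn7, Krt7, Fermt1, Grhl2, Rab25, Cldn3, Ppl, Prss8, Esrp1, Tmem54, Perp and Gm16136. Cldn6, a claudin of tight junctions, stood at 274 (240.4 to 312) in E9.5 members and 4.32 in the other cells, and at 131 (114 to 150.5) against 0.242 in the E11.5 library. Cldn7 stood at 178 (151 to 209) against 2.75, and then at 125 (108 to 144) against 0.374. Esrp1, a splicing regulator of epithelia, stood at 62.2 (46.6 to 81.3) and 63.96 (51.98 to 77.9) in members, where the other cells had 1.32 and 0.273. Grhl2, a transcription factor that maintains epithelial junctions, stood at 43.4 (30.6 to 59.8) and 41.3 (31.8 to 52.8). For Esrp1 and Grhl2 the intervals of the stages overlapped. Of an epithelial identity list of 16 genes, 10 of 11 compared at E9.5 were at least 2-fold higher in members, and 12 of 13 at E11.5. Of the tight junction and polarity list the numbers were 14 of 16 and 13 of 15. Over all genes with at least 50 UMIs, 13.2% of 12177 were at least 2-fold higher and 6.56% lower in E9.5 members, and in E11.5 members 10.8% of 13481 were higher and 12.3% lower. A gene at that minimum would have 0.305 and 0.596 UMIs in members by their share of the UMIs, so many of these ratios rest on very few member UMIs.

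The keratins of members differed between the stages. Krt8 and Krt18, partners in simple epithelia, were lower at E11.5, and the basal pair Krt5 and Krt14 was higher. Krt8 stood at 419 (376 to 465) and 180.3 (159.7 to 203), a log2 ratio of -1.22 (-1.45 to -0.99), and Krt18 at 392 (351 to 436) and 143 (125 to 163). Krt5 stood at 17.6 (9.85 to 29.02) and 639 (599.8 to 680.1), a log2 ratio of 5.18 (4.45 to 6.03). Krt14 had 1 UMI at E9.5 and stood at 497 (463 to 534) at E11.5, a log2 ratio of 8.73 (6.25 to 14.03). None of these intervals overlapped between the stages. Krt8 was found in 49 of 52 and 43 of 106 members, and in 76.9% and 28.7% of members thinned to 5000 UMIs. Krt5 was found in 10 and 101 members, and in 9.62% and 88.1% after thinning. Endothelial cells, which should lack keratins and so show the background of free RNA, held Krt8 in 1.48% and 0% of cells and Krt5 in none. Their medians were 14144 and 14608 UMIs. Krt17 stood at 2.35 (0.284 to 8.47) and 85.3 (71.4 to 101), while Krt7 and Krt19 had log2 ratios of -0.56 (-0.91 to -0.22) and -0.40 (-0.75 to -0.03). Among 8 keratins compared, 4 were at least 2-fold higher and 2 lower at E11.5. Over all 6090 genes compared 8.41% were higher and 3.66% lower, with a median log2 ratio of -0.04. In the other cells kept, 7.16% of 6088 genes, chosen by their UMIs in members and not in these cells, were higher and 3.27% lower. Among members with Trp63 or Krt15 alone, 8.83% of 5276 genes were higher and 3.66% lower. Krt4, Krt13 and Krt6a were at 0 in members of both stages. The keratins lie in 2 clusters of GRCm38, Krt7 (101411043 to 101430313), Krt5 (101707070 to 101712898), Krt8 (101996698 to 102004482) and Krt18 (102028180 to 102032027) on chromosome 15, and Krt15, Krt19, Krt14 and Krt17 from 100131758 to 100261029 on chromosome 11. Genes with opposite differences thus lay in the same cluster.

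**Figure D1:**
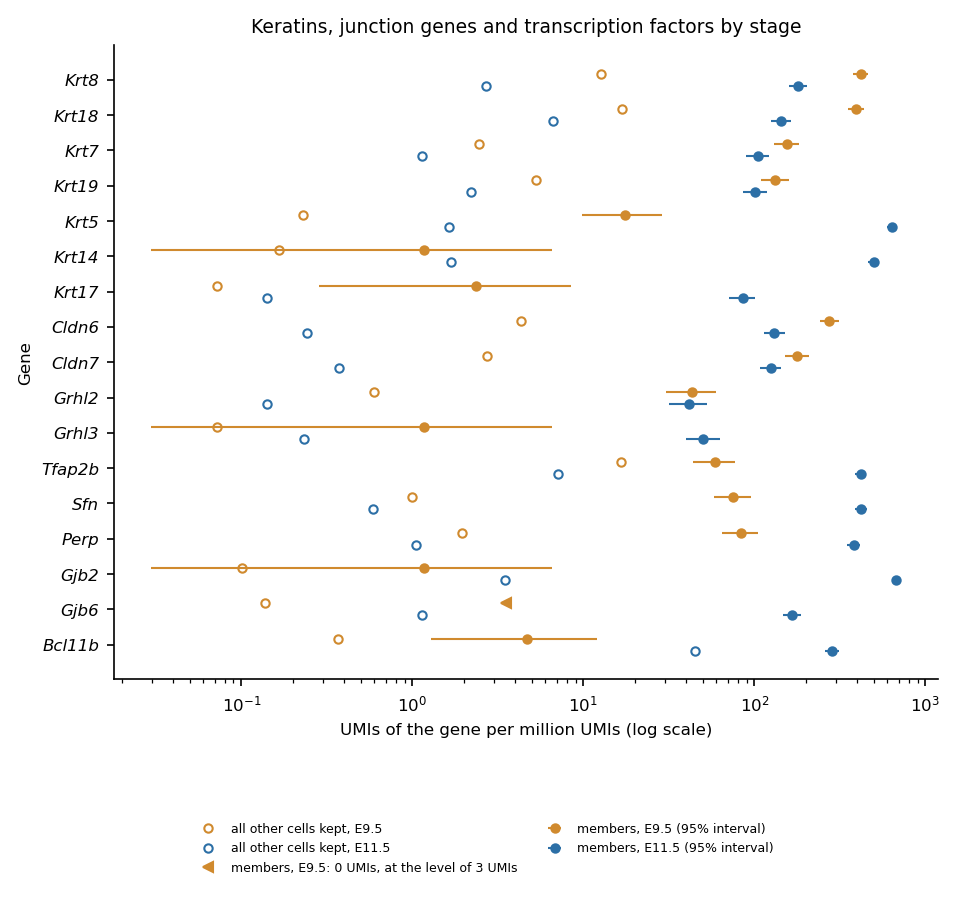
Levels of 17 genes in UMIs per 1000000 (log axis), with filled points for members and 95% Poisson intervals, open points for all other cells kept, and a triangle at the level of 3 UMIs where a group had none. Orange is E9.5 and blue E11.5, and Krt8 and Krt18 sit lower at E11.5 while Krt5, Krt14, Gjb2 and Bcl11b sit higher.

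Most periderm and stratification genes compared were higher at E11.5. Sfn, a 14-3-3 protein of epithelial cells, stood at 75.1 (57.8 to 95.9) and 422 (390.1 to 456), where the other cells had 1.002 and 0.593. Perp, a desmosome protein and Trp63 target, stood at 83.3 (65.04 to 105) and 381 (350.4 to 413). Gjb2, a connexin of gap junctions, had 1 UMI at E9.5 and stood at 676 (636 to 719) at E11.5, in 95 of 106 members. After thinning it was found in 84.2% of them. Its neighbour Gjb6 had no UMI in E9.5 members and stood at 166 (146 to 188), a log2 ratio of at least 5.56 against a floor of 3 UMIs over the E9.5 members. On chromosome 14 Gjb2 spans 57098600 to 57104702 and Gjb6 57123303 to 57133611, both on the minus strand. Of 8 periderm and stratification genes compared, 6 were higher and 0 lower, with a median log2 ratio of 2.84. Of 10 genes of desmosomes and adherens junctions, 5 were higher and 0 lower. Pkp3, a desmosome plaque protein, stood at 16.4 (8.98 to 27.6) and 71.7 (58.99 to 86.4), whereas Dsp, another plaque protein, stood at 62.2 (46.6 to 81.3) and 104 (88.6 to 121) and stayed under 2-fold. Of 11 genes of tight junctions and polarity compared, 1 was higher, Cldn23, and 2 were lower, Cldn6 and Cgn, with a median of -0.52, beside 8.41% higher and 3.66% lower over all genes compared. Of 8 late epidermal genes, 7 and 4 had no UMI in members, and the summed level was 14.1 and 91.1, beside 30.8 and 59.3 in the other cells. The most abundant was Krt10, a keratin of suprabasal layers, at 14.1 (7.27 to 24.6) and 60.1 (48.5 to 73.6), with 29.7 and 48.1 in the other cells. It was the only gene of the list with enough UMIs to be compared between the stages, and its log2 ratio was 2.09 (1.22 to 3.10). Krt1, the partner of Krt10, had 24 UMIs in 20 E11.5 members and none at E9.5.

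Of 14 genes of basement membrane and integrins compared, 1 was higher, 0 lower, and the median was 0.07, where 8.41% of all genes compared were higher and 3.66% lower with a median of -0.04. Lamb1, a laminin chain, stood at 87.97 (69.2 to 110.3) and 84.6 (70.8 to 100.4), Col4a1, a collagen of the sheet, at 113 (91.2 to 138) and 103 (87.97 to 121), and the integrin Itga6 at 64.5 (48.6 to 83.97) and 65.3 (53.1 to 79.3). Each pair of intervals overlapped. The gene past 2-fold was Dst, which links keratin filaments to hemidesmosomes, at 36.4 (24.7 to 51.6) and 127 (110.1 to 146). Its partners Itgb4 and Col17a1 had 2 and 0 UMIs in the younger members against 34 and 21 in the older, too few to be compared.

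Of the epithelial transcription factors, some kept their level and others were higher at E11.5. Grhl2 and Tfap2a had log2 ratios of -0.07 (-0.68 to 0.56) and 0.35 (-0.11 to 0.83). Tfap2b, a further AP-2 factor, stood at 58.6 (43.5 to 77.3) and 419 (387 to 452) and was found in 18 of 52 and 102 of 106 members. Grhl3, which the epidermal barrier needs, had 1 UMI at E9.5 and stood at 50.4 (39.8 to 62.9) at E11.5. Klf5, a zinc finger factor of epithelia, stood at 5.86 (1.904 to 13.7) and 30.4 (22.3 to 40.4), with 0.757 and 1.79 in the other cells. In all 4 of 7 factors compared were higher and 0 lower, with a median log2 ratio of 2.37, beside -0.62 for these genes in the other cells. Among all genes compared, 8.41% were higher and 3.66% lower. Bcl11b, a zinc finger factor of skin and T cells, stood at 4.69 (1.28 to 12.01) and 286 (259.6 to 313), but it was higher at E11.5 in the other cells as well, at 0.367 and 45.2. Barx2, a homeobox factor, stood at 1.17 (0.0297 to 6.54) and 89.8 (75.5 to 106), with 0.742 and 0.757 in the other cells. Of 8 genes of epithelial-mesenchymal transition, 4 were compared, of which 3 were higher at E11.5, Vim, Twist1 and Snai2, and 1 lower, Fn1. Snai2 was under 2-fold among members with Trp63 or Krt15 alone. At least 3 of the 8 genes were held by 8 and 22 members, and 7 of the 22 at E11.5 were Scrublet calls. Of 5 mesenchyme genes compared, 4 were higher and 1 lower, with a median log2 ratio of 1.95, beside 2.49 in the other cells. Vim, a filament protein of mesenchyme, stood at 37.5 (25.7 to 52.99) and 258 (234 to 285), below the 342 and 735 of the other cells. Fn1, a matrix glycoprotein, stood at 201 (172 to 233), above the 92.4 of the other cells, and then at 55.6 (44.4 to 68.6), below their 151. Among E9.5 members with Trp63 or Krt15 alone it stood at 126, under 2-fold from the other cells. Against the other cells, 1 of the 8 genes was at least 2-fold higher and 6 lower in E9.5 members, and 0 and 7 in E11.5 members. Over all genes compared with the other cells, 13.2% were higher and 6.56% lower in E9.5 members, and 10.8% and 12.3% in E11.5 members.

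Secreted signals differed between the stages. Cxcl14, a chemokine of epithelia, stood at 22.3 (13.4 to 34.8) at E9.5, in 4 members, and at 3660.0 (3565 to 3757) at E11.5, in 102. Its log2 ratio was 7.36 (6.72 to 8.09), and it was found in 5.77% and 91.1% of thinned members and 0% and 0% of endothelial cells. Members held 13.8% and 65.05% of all Cxcl14 UMIs of their library, with 0.611% and 1.19% of its UMIs in all. Of 8 Wnt ligands compared, 7 were at least 2-fold higher at E11.5 and 0 lower, with a median log2 ratio of 2.80, beside 0.47 for the list in the other cells. The shares over all genes compared were 8.41% higher and 3.66% lower. Wnt6 stood at 240.5 (209 to 276) and 564 (527 to 603), and members held 16.6% and 62.7% of its UMIs. It was found in 48.1% and 88.1% of thinned members, and in 0% and 1.67% of endothelial cells. Among members with Trp63 or Krt15 alone its log2 ratio was 0.88, under 2-fold, beside 1.23 in all. Wnt4 stood at 86.8 (68.2 to 109) and 450.3 (417 to 485). Wnt3 stood at 10.6 (4.83 to 20.04) and 154 (135 to 175), and members held 7.83% and 74.4% of its UMIs. Wnt7b stood at 15.2 (8.12 to 26.1) and 143 (125 to 164), and Wnt10a at 3.52 (0.726 to 10.3) and 73.01 (60.2 to 87.8). The levels of these ligands in E11.5 members lay above those of the other cells. Wnt5a was not past 2-fold, at 29.3 (18.98 to 43.3) and 18.7 (12.5 to 26.9), and the other cells of E11.5 had more of it, at 71.2. Wnt3a, Wnt9b and Wnt10b had no UMI in E9.5 members, and 24, 23 and 23 UMIs at E11.5. Wnt6 and Wnt10a are neighbours on chromosome 1 (74771892 to 74785322 and 74791516 to 74804179), as are Wnt9b and Wnt3 on chromosome 11 (103727364 to 103749821 and 103774150 to 103817957).

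Of the genes that export, receive or block Wnt signals, 6 of 11 compared were higher at E11.5 and 0 lower. Of all genes compared, 8.41% were higher and 3.66% lower. Wls, which carries Wnt proteins to the cell surface, stood at 101 (80.7 to 125) and 221 (198 to 246). Kremen2, a receptor for Dkk antagonists, stood at 16.4 (8.98 to 27.6) and 212 (189.6 to 236), with 0.353 and 8.705 in the other cells. The Wnt receptor gene Fzd10 had no UMI at E9.5 and stood at 67.8 (55.5 to 82.1) at E11.5, in 58 members. Axin2, a target of Wnt signals, stood at 18.8 (10.7 to 30.5) and 40.7 (31.3 to 52.1). Sostdc1, an antagonist of Wnt and Bmp, stood at 121 (98.6 to 147) and 158 (139 to 179), intervals that overlapped.

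**Figure D2:**
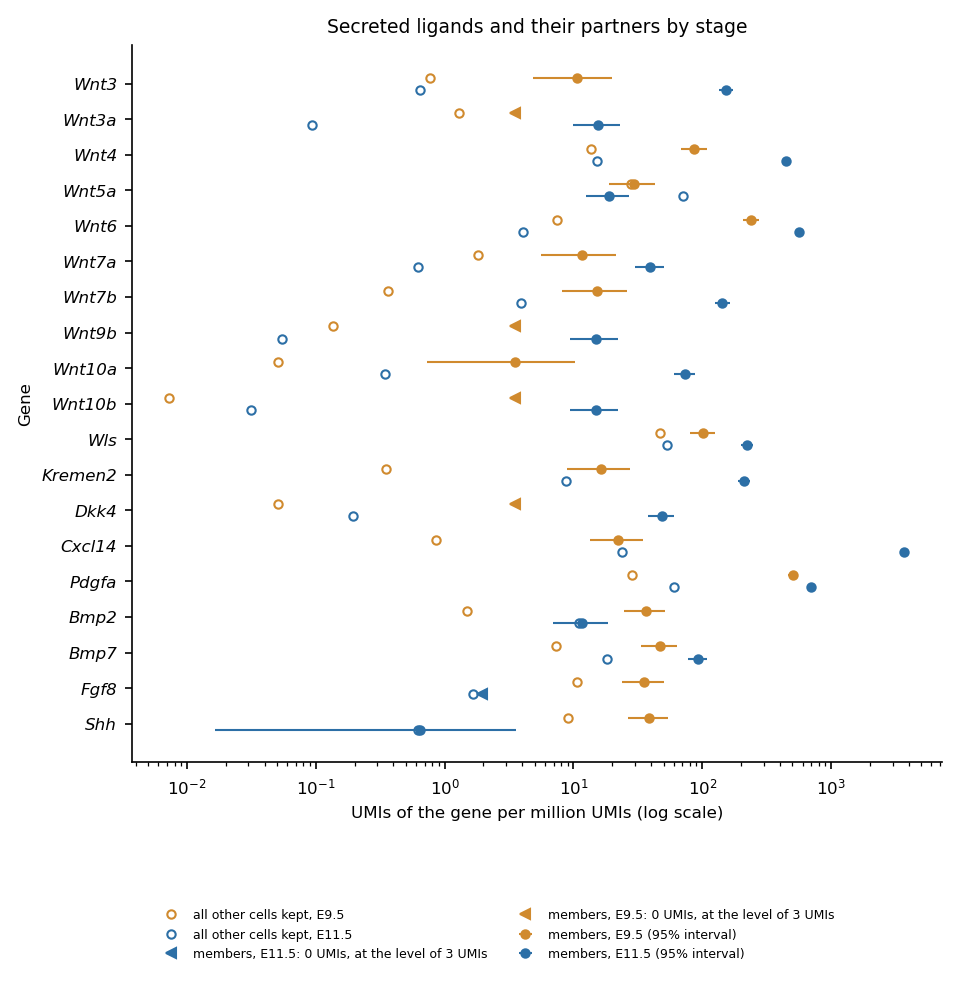
Levels of 19 genes of secreted ligands and their partners in UMIs per 1000000 (log axis), with filled points for members, 95% Poisson intervals, open points for all other cells kept, and a triangle at the level of 3 UMIs where a group had none. Wnt3, Wnt4, Wnt6, Wnt7b, Wnt10a and Cxcl14 sit higher in E11.5 members than in E9.5 members and in both sets of other cells, while Fgf8, Shh and Bmp2 sit lower at E11.5.

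Of 10 Bmp and Tgf-beta genes compared, 1 was at least 2-fold higher and 4 were lower at E11.5, and of 5 Fgf genes 1 was higher and 2 were lower. Over all 6090 genes compared, 8.41% were higher and 3.66% lower. The Id genes, targets of Bmp signals, were lower. Id1 stood at 247 (215 to 283) and 118 (102 to 137), Id2 at 325 (288 to 366) and 76.2 (63.1 to 91.3), and Id3 at 539.6 (491 to 591) and 223 (200.0 to 248). In the other cells their log2 ratios were -0.13, -0.15 and 0.11. Bmp2 stood at 36.4 (24.7 to 51.6) and 11.6 (6.89 to 18.4), whereas Bmp7 stood at 46.9 (33.5 to 63.9) and 92.4 (77.9 to 109). In the other cells Bmp2 stood at 1.48 and 11.1 and Bmp7 at 7.35 and 18.3. Fgf8, a ligand of the limb bud rim and other signalling centres, had 30 UMIs in 8 E9.5 members and none at E11.5. Fgfr2, the main Fgf receptor of epithelia, stood at 101 (80.7 to 125) and 204 (182 to 228). Among the feedback genes of Fgf signals, Spry2 had a log2 ratio of -1.17 (-1.79 to -0.55) and Dusp6 of -1.06 (-1.86 to -0.27). Among members with Trp63 or Krt15 alone, Fgfr2, Spry2 and Dusp6 stayed under 2-fold, with log2 ratios of 0.67, -0.58 and -0.90. Shh, a Hedgehog ligand and the most abundant gene of the gut list at E9.5, had 33 UMIs at E9.5, all in 5 members, and 1 UMI at E11.5. Of 6 Notch genes compared, 3 were higher and 0 lower, among them the receptor Notch1 at 32.8 (21.8 to 47.5) and 125 (108 to 144).

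Prtg, Lin28a and Crabp1 were among the 15 genes lowest at E11.5. Prtg, an immunoglobulin protein of early embryos, stood at 317 (280.0 to 357) and 1.94 (0.3997 to 5.66), and it was lower in the other cells too, at 312 and 6.48. Lin28a, an RNA-binding protein of developmental timing, had 83 UMIs in 36 E9.5 members and none at E11.5, and it was lower in the other cells too, at 50.6 and 0.499. Of 4 retinoic acid genes compared, 2 were higher at E11.5, Dhrs3 and Rarg, and 2 lower, Crabp1 and Crabp2, which bind retinoic acid in the cytoplasm. Crabp1 stood at 629.9 (578 to 685) and 27.1 (19.6 to 36.7), with 570.4 and 384 in the other cells. Crabp2 stood at 703 (647 to 761) and 72.4 (59.6 to 87.1), with 698 and 275 in the other cells. Dhrs3, a reductase of retinal, stood at 8.21 (3.301 to 16.9) and 58.1 (46.8 to 71.5), and Rarg, a retinoic acid receptor, at 5.86 (1.904 to 13.7) and 36.8 (27.9 to 47.7). Both were higher at E11.5 in the other cells as well, with log2 ratios of 1.82 and 1.70. Foxi2, a forkhead factor, had 56 UMIs in 12 members at E9.5 and none at E11.5, with 0.699 and 0.0156 in the other cells. Wfdc2, a secreted protein of epithelia, stood at 419 (376 to 465) and 46.5 (36.4 to 58.6), with 39.6 and 11.8 in the other cells. The imprinted genes H19 and Igf2 differed in their course from the other cells. H19 had a log2 ratio of -0.43 (-0.60 to -0.27) in members and 1.40 in the other cells, and Igf2 of 0.13 (-0.15 to 0.41) and 2.10. The cell cycle inhibitor Cdkn1c was higher in both, with 2.74 (2.47 to 3.02) and 3.12. Of 14 mitosis genes none passed 2-fold, and of 14 S phase genes 3 were lower and 0 higher. For these counts and those of retinoic acid genes, the shares over all genes compared were 8.41% higher and 3.66% lower.

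**Figure D3:**
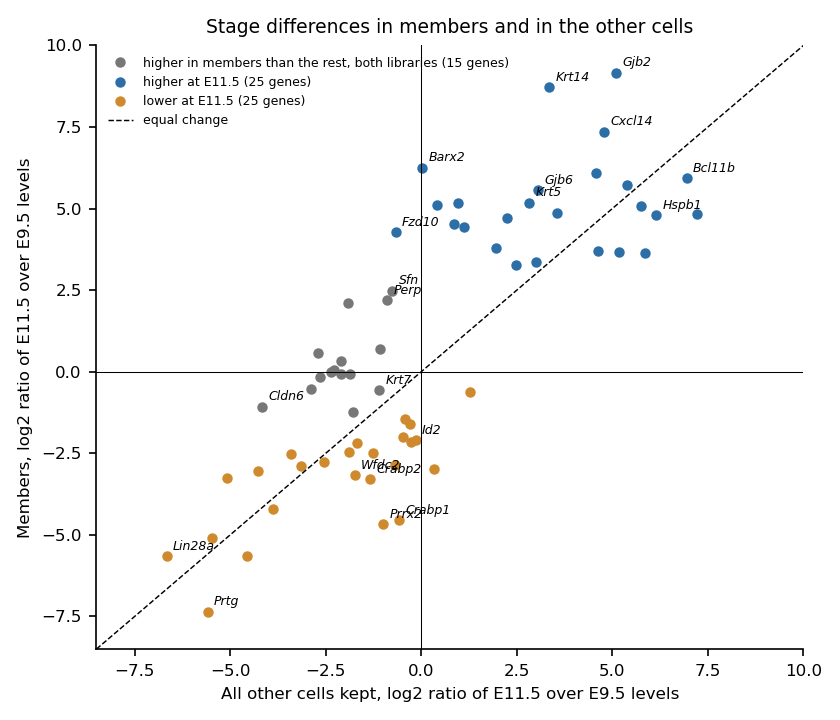
Log2 ratios of E11.5 over E9.5 levels in members (vertical axis) and in all other cells kept (horizontal axis) for the 15 genes highest in members and the 25 highest and 25 lowest at E11.5 among members that held none of 7 lists of other tissues, with genes at 0 UMIs in a group plotted at their bound. Krt14, Gjb2, Cxcl14 and Fzd10 lie above the dashed line of equal change, and Crabp1 and Prrx2 below it.

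The members of E9.5 varied among themselves. Of 2802 genes compared, 1.07% were at least 2-fold higher and 1.75% lower in the 21 members without Trp63 or Krt15 than in the 31 with them. The members with Trp63 or Krt15 had more Wnt4, at 147 against 10.6, Perp, at 141 against 10.6, and Pdgfa, a growth factor ligand, at 712 against 245. Hoxc8, a gene of trunk position, stood at 109 in them and had no UMI in the members without. Krt8 differed little, at 432 and 401. The members without had more Prrx2, a homeobox factor, at 329.7 against 119.6, Sox2, at 104 against 27.3, and Wfdc2, at 614 against 264. The mesenchyme list, which contains Prrx2, was held by 6 of the 21 members without and 2 of the 31 with, and the neural tube list, which contains Sox2, by 5 and 1. Their part in the split was not tested. Pyy, a gut hormone, rested on 7 members, 1 of which held 71 of its 83 UMIs, and Ttr, a carrier protein of endoderm, on 3 members. At least 3 of 15 gut endoderm genes were held by 5 E9.5 members (9.62%, 3.196 to 21.03) and by 1.04% of the other cells, but by 2 once thinned. The 5 were 3 of the 31 with Trp63 or Krt15 and 2 of the 21 without, 9.68% and 9.52%. None of these 5 held the periderm list. At E11.5 none of 106 members held the gut list, which allows a share of up to 2.83% by 3 counts and 3.42% by the exact binomial interval. This limits the share in which the list was found at the depth of these cells, not the share of gut cells. Of 9 gut genes compared at E9.5, 5 were at least 2-fold higher in members than in the other cells and 0 lower, with a summed level of 118 against 39.7. Over all 12177 genes compared between E9.5 members and the other cells, 13.2% were higher and 6.56% lower. In the E11.5 library the summed level was 5.17 in members and 19.3 in the other cells. Of the 15 genes, 3 had no UMI in E9.5 members and 10 none in E11.5 members, with Hnf4a and Sox17 at 0 in both. At least 3 of 12 yolk sac endoderm genes were held by 2 E9.5 members, with a summed level of 85.6 against 8.16 in the other cells and Ttr the most abundant. At E11.5 only 5 members lacked Trp63 and Krt15, and 4.51% of 4591 genes were higher and 13.2% lower in them. These ratios rest on few cells, and germ cell genes such as Dppa5a, with all 140 UMIs in 1 member, led them.

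Some E11.5 members held many periderm genes. Gabrp, a GABA receptor subunit of the periderm list, was found in 19 of 106 E11.5 members and in none at E9.5. These 19 members, a group chosen after the values were seen, had a median of 19433 UMIs and the other 87 had 11401. Of 4591 genes compared, 3.01% were at least 2-fold higher and 3.49% lower in the 19. Upk1a, a uroplakin of surface epithelia, had 78 UMIs in them and 1 in the others, and Rhov, a small GTPase, 53 and 0. Grhl3 stood at 175 in them and 7.81 in the others, Cldn3 at 261 in them and 14.7 in the others, and Sfn at 1048 in them and 207 in the others. Of the basal keratin pair, Krt14 stood at 347 in them and 549 in the others and Krt5 at 843 in them and 569 in the others, both under 2-fold. Krt15 and Trp63, genes of the rule, were lower past 2-fold, at 220 against 736 and 122 against 325. Krt8 and Krt17 were higher past 2-fold, at 390 against 108 and 223 against 38.2. Cxcl14 stood at 1403 in them and 4433 in the others.

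At least 3 genes of the mammary line and placode list were held by 80 of 106 E11.5 members and by 28 of 52 E9.5 members. Wnt6 was the most abundant gene of this list at both stages. It stood at 240 of a summed level of 527 at E9.5, and at 564 of 1205 at E11.5. Holding the list is therefore not by itself a mark of placode cells. The periderm and the placode lists were held together by 53 of the 106. Dkk4, a Wnt antagonist of placodes, was found in 11 members of E11.5 and in none of E9.5. This group was also chosen after the values were seen. Of the 11 members with Dkk4, 8 were among the 13 with Pthlh, a hormone of the mammary bud, 7 among the 18 with Wnt10b, and 5 among the 9 with Edar, the ectodysplasin receptor. Pthlh stood at 630.0 in them and 14.8 in the others. Tbx3, a factor of the mammary line, stood at 255 in them and 34.6 in the others, Lef1, a factor of Wnt signals, at 255 in them and 45.2 in the others, and Gata3 at 495 in them and 108 in the others. Ripply3 stood at 742 in them and 37.5 in the others. Sfn was lower in these members, at 127 in them and 449.6 in the others. Their median was 10815 UMIs and that of the others 12348. Over 4591 genes, 3.03% were at least 2-fold higher and 12.8% lower in the 11.

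**Figure D4:**
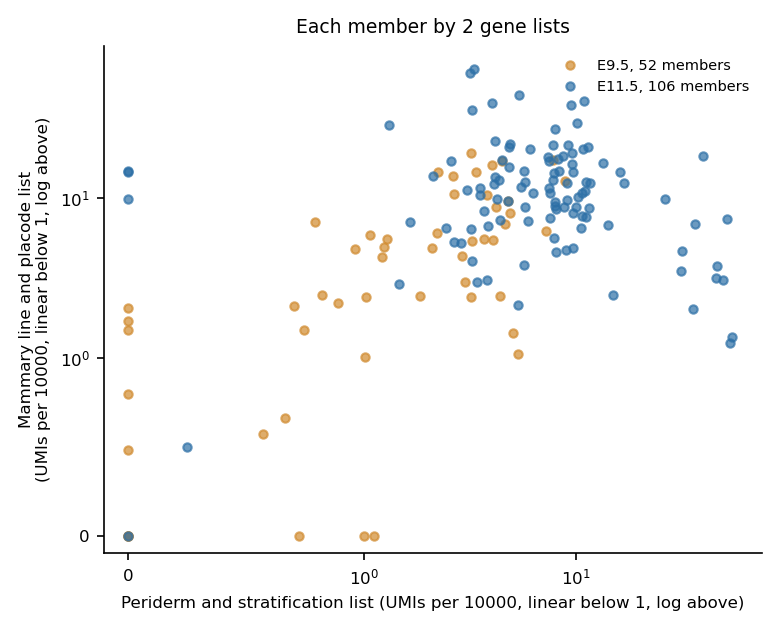
Each member placed by its UMIs of the periderm and stratification list (horizontal axis) and of the mammary line and placode list (vertical axis) per 10000 of its UMIs, both axes linear below 1 and logarithmic above, orange for E9.5 and blue for E11.5. The medians were 1.96 and 7.78 on the periderm list and 4.33 and 10.8 on the placode list, of which Wnt6 was the most abundant gene at both stages.

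Counts of whole lists in single members moved with depth. At least 3 genes of the periderm list were held by 14 of 52 E9.5 members (26.9%, 15.6 to 41.02) and by 68 of 106 at E11.5 (64.2%, 54.3 to 73.2), where 0.429% and 0.148% of the other cells held them. With members thinned to 5000 UMIs the counts were 2 of 52 and 32 of 101, and 0 of 270 and 0 of 60 endothelial cells held the list. At least 3 Wnt ligands were held by 19 and 99 members, and by 7 and 85 when thinned, beside 4.94% and 8.16% of the other cells. Mammary line and placode genes were held by 28 and 80, and by 13 and 53 when thinned, beside 2.28% and 4.61% of the other cells. Both lists contain Wnt6. Genes of the apical ectodermal ridge, the signalling rim of the limb bud, were held by 15 of 52 and 2 of 106 members, but by 3 and 1 when thinned. Of the other cells, 2.04% and 0.696% held them.

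Genes of other tissues were found in some members. At least 3 of 14 mesenchyme genes were held by 8 of 52 and 14 of 106, beside 57.6% and 81.5% of the other cells, and 7 of the E11.5 members that held them were Scrublet calls. Their summed level was 331 and 313 in members, with Prrx2 and Col1a2 the most abundant, and 752 and 2040.1 in the other cells. Somite and muscle genes were held by 0 and 4 members. The rule left out cells with Meox1, Cdh5, Sox10 or Elavl3. Low counts of somite, endothelial, neural crest and neuron genes thus follow in part from the choice. Of the 74 E9.5 cells that met the UMI threshold but held an excluded gene, 9 held the somite list. Of 3284 UMIs of sarcomere and muscle genes in E11.5 members, 2764 lay in 1 member with 41806 UMIs in all and 4 UMIs of the rule genes. Of the 15 genes highest at E11.5, 10 were of this kind, Actc1, Acta1, Myl1, Acta2, Mylpf, Tnnc1, Ttn, Tnnc2, Myl4 and Tnni1, and each had 69.1% to 98.9% of its member UMIs in 1 member. Mylpf, a muscle myosin chain, had 661 of its 718 UMIs in 1 member. Another member with 40042 UMIs held 339 of 340 UMIs of germ cell genes. At least 3 neural crest genes were held by 4 and 11 members (7.69% and 10.4%, beside 7.77% and 5.42% of the other cells), and by 1 and 1 once thinned. That list contains Tfap2b, its most abundant gene in members. Nephric genes were held by 1 and 8 (1.92% and 7.55%, beside 2.602% and 1.02%), and by 0 and 1 once thinned, with Gata3 the most abundant and Wnt9b also on the list. Neural tube genes were held by 6 and 0 members, beside 26.2% and 3.11% of the other cells, and neuron genes by 2 and 3. At least 3 endothelial genes were held by 0 and 1 members, white blood genes by 0 and 0, and primitive red blood genes by 0 and 2. Tie1 of the endothelium and Ptprc of white blood cells were at 0 in all members. The summed level of red blood genes was 23.5 and 67.8 in members, and 4618 and 11748 in the other cells. The 10 and 19 members that held the list of mesenchyme, somite and muscle, red blood, white blood, endothelium, neurons or germ cells were then left out. The lists of gut, yolk sac, nephric, neural crest and neural tube genes were not used for this, and 4 of the 5 E9.5 members with the gut list were kept. Without the 10 and 19 members, 7.83% of 5035 genes were higher and 4.09% lower at E11.5. The log2 ratios of Krt5, Cxcl14, Wnt6, Sfn and Crabp1 were then 5.08, 7.22, 1.24, 2.49 and -5.49, beside 5.18, 7.36, 1.23, 2.49 and -4.54 with all members. None of the 10 muscle genes was among the 25 highest without these members. Among members with Trp63 or Krt15 alone, the ratios of the same 5 genes were 4.49, 6.64, 0.88, 1.81 and -4.94. Wnt6 was then under 2-fold, as were Wls, Cgn and Snai2, at 0.65, -0.73 and 0.95. Leaving out the 10 and 19 members moved the values of 24 of 95 named genes, and 71 stayed within the interval of the reported ratio. The log2 ratio of Prrx2 between stages went from -4.66 to -6.68 and that of Tpm2 from 1.63 to -0.76. Prrx2 is itself on the mesenchyme list, so its ratio without these members follows in part from the choice. Beyond this, the part of other tissues in the results was not tested.

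**Figure D5:**
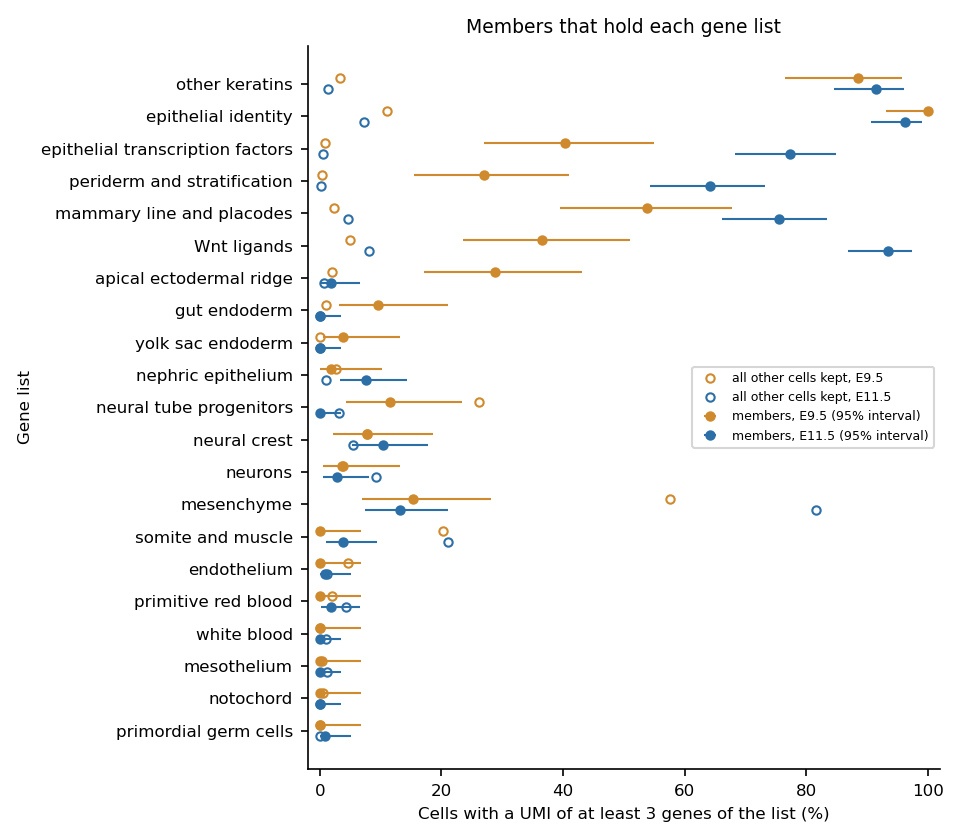
Share of cells with a UMI of at least 3 genes of each of 21 lists, with filled points for members (95% binomial intervals) and open points for all other cells kept, orange for E9.5 and blue for E11.5. The periderm list sits at 26.9% and 64.2% of members and under 1% of the other cells, while mesenchyme sits at 15.4% and 13.2% of members.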

How the data were processed

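Single cells of 3 pooled embryos per stage were measured, and the authors deposited raw UMI counts per gene and barcode, made with Cell Ranger 3.0.1 on mm10 and not normalized. Following the study, genes seen in at least 3 cells of a library were counted, and barcodes with fewer than 200 genes, 6500 genes or more, or 15% mitochondrial UMIs or more were removed, 270 at E9.5 and 572 at E11.5. Doublets were removed only by the limit on genes, and in an alternative by Scrublet (scanpy 1.11.5, expected rate 0.08), which marked 683 and 407 barcodes, 2 and 7 of them members. UMIs were summed over members, and ratios taken for genes with at least 50 UMIs over the groups compared. For the other cells between the stages, the genes were those with at least 50 UMIs over the members of both stages. A gene counted as higher or lower at 2-fold or more, without a test. Where a group had 0 UMIs, the ratio was taken against a floor of 3 counts over the group. For shares of cells, each cell was also thinned to 5000 UMIs, which left out 5 members of E11.5. The background came from 270 and 60 endothelial cells with at least 4 UMIs from at least 2 of Pecam1, Kdr, Emcn and Cdh5 and no Meox1, Sox10 or Elavl3. The ratio was tested on simulated data for E11.5 against E9.5 members with 6090 genes. The median error was 0.165 on the log2 scale for unchanged genes, of which 0.357% passed 2-fold. This share was not tested for genes varying between members beyond counting error, such as Mylpf with 661 of 718 UMIs in 1 E11.5 member.

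The members and lists were chosen with earlier results of these data known. Named genes were the genes of the rule, the 15 with the highest lower bound against the other cells in both libraries, the 15 highest and 15 lowest between stages by the bound nearest 0, the 10 most variable per library, the 10 highest and 10 lowest by Trp63 or Krt15, and genes of the lists. A ranking of 25 and 25 genes without members that held another tissue's list, and the groups with Gabrp, Dkk4 or Fgf8, were added after the values were seen, as were Upk1a, Rhov and the other genes named only for these groups. The alternatives changed the rule, the filters, the depth, the doublets, the weights of cells and the UMI minimum. Of 27998 genes, 56 symbols stood on more than one ID, of which the first was used. Some genes are not reported here. Python 3.11.15, numpy 2.4.6, scipy 1.17.1, pandas 2.3.3 and matplotlib 3.10.9 were used, with gene positions from GENCODE M21 on GRCm38.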

Additional observations from a re-analysis of the deposited data

Results flagged for a closer look

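Relative to the other cells of the same library, 5 listed genes lay at least 2-fold to opposite sides at the 2 stages, with intervals that left out 0. The lists hold 458 genes, of which those of the rule and those with too few UMIs were not considered. No such count was made over all genes, so there is no share to set beside the 5. Each stage is 1 library, and the difference was not tested. On the log2 scale of members over other cells, Fn1, a matrix glycoprotein, was at 1.12 in the E9.5 and -1.44 in the E11.5 library. Prrx2, a homeobox factor of mesenchyme, was at 1.00 (0.78 to 1.21) and -2.67. Spry2, a feedback inhibitor of Fgf signals, was at 1.61 and -1.04. Isl1, a homeobox factor, was at 2.68 and -5.06, with 50 UMIs in 18 E9.5 members and 1 UMI at E11.5. Fzd10 took the other direction, at -2.31 or lower against a floor of 3 UMIs, since E9.5 members had none, and 2.63. Among E9.5 members with Trp63 or Krt15 alone, Fn1, Prrx2 and Spry2 were under 2-fold from the other cells, at 126, 119.6 and 39.9 UMIs per 1000000 against 92.4, 106 and 19.99. Without members that held any of 7 lists of other tissues, Fn1 and Prrx2 stood at 137 and 179 at E9.5, also under 2-fold. The mesenchyme list, which is among the 7, contains Prrx2, so the value of Prrx2 follows in part from this choice.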

How the results depend on the processing

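No replicate could be left out, and no paired analysis was possible because each stage had 1 library. Members held 852546 and 1547828 UMIs, which limits genes of few UMIs. Of 162 values of main results under alternatives, 124 stayed within 1.5 times or the interval of the reported value and 38 did not. Of 1329 values for 105 named genes, 1103 stayed within the interval of the reported ratio and 226 did not. The 226 included 67 after thinning, 48 with at least 3 of the 4 genes and 42 of 103 with only members that held Trp63 or Krt15. They also included 24 of 95 without members that held any of 7 lists of other tissues. No 2-fold call became a 2-fold call in the opposite direction. Tpm2 changed sign, from a log2 ratio between stages of 1.63 (1.21 to 2.07) with all members. Without members that held any of 7 lists of other tissues it was -0.76 (-1.39 to -0.13), under 2-fold. The cause of the moves was not tested, except that a higher minimum compares fewer genes.

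E9.5 members numbered 19 (0.193%) with at least 3 of the 4 genes, 126 (1.28%) without the excluded genes and 29 (0.311%) after thinning. Genes higher at E11.5 numbered 148 after thinning, 1076 with at least 20 UMIs and 105 with at least 200. Genes lower numbered 99, 462 and 58 in the same order, and 396 without the excluded genes. Against the other cells, 912 genes (E9.5) and 910 (E11.5) were higher with at least 200 UMIs. With at least 1000, added after seeing the data, 324 were higher and 496 lower in the E9.5 library, and 378 and 855 in the E11.5 library.

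After thinning, gut, periderm, ridge, placode and mesenchyme lists were held by 2, 2, 3, 13 and 3 members of E9.5, and the periderm, ridge, placode, mesenchyme and somite lists by 32, 1, 53, 9 and 2 of E11.5. With 2 genes in place of 3, periderm, ridge, mesenchyme and somite lists were held by 32, 32, 23 and 2 members of E9.5, and gut, ridge, mesenchyme and somite lists by 1, 9, 31 and 9 of E11.5. Without Scrublet calls, 7 members of E11.5 held the mesenchyme list.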

Other observations

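The 8 E9.5 members with Fgf8, a group chosen after the values were seen, stood higher than the other 44 in Socs2, an inhibitor of cytokine signals, at 234 against 30.7 UMIs per 1000000, in Ripply3, at 212 against 40.5, and in Spry2, at 161 against 41.9. Of 2802 genes compared, 1.93% were at least 2-fold higher and 5.35% lower in the 8. Wnt6 was lower in them, at 58.5 against 275. By variance over that of a Poisson count, the genes that varied most among E9.5 members were Gm42418 at 83.8, Pyy at 58.4 and Tmsb4x at 42.97, beside a median of 1.05 over 8896 genes. Cells with at least 4 Epcam UMIs but no other gene of the rule numbered 32 at E9.5, with Krt8 at 383, and 11 at E11.5, with Twist1, a factor of mesenchyme, at 348.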
